A study of Bos taurus with 29 samples.

Results

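Transcripts that both epithelia of the bovine endometrium held at similar levels, and that the stroma held far below that level, are described here across all samples of the series. The members were chosen on mean TPM (an expression level corrected for transcript length and sequencing depth) in the low progesterone cows. A transcript was kept when the means in luminal epithelium (LE) and in glandular epithelium (GE) were both at least 20 TPM, both at least 10 times the mean in stroma (ST), and less than 5-fold apart. Of 37925 transcripts, 160 met the rule. Of the 4950 transcripts at 20 TPM or more in both epithelia, 169 were also at least 10 times higher than in ST, and 160 of those were within 5-fold of each other.

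The series holds 29 RNA-seq samples of laser-microdissected LE, GE and ST cells from biopsies of 13 Holstein cows, taken 45 days postpartum according to the labels. The 4 cows labelled P4high had plasma progesterone (P4) above 1 ng/mL, and the 9 cows labelled P4low were below it. The low P4 cows gave 6 LE, 7 GE and 9 ST samples, and the high P4 cows gave 1 LE, 3 GE and 3 ST samples. Cows carry a number from 1 to 13, and samples of different cell types with the same number are from the same animal. The P4 groups are different cows. The captured ST area may hold fibroblasts, immune cells and endothelial cells. The total estimated counts of a sample lay between 24860445 and 33209181.

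The luminal epithelium lines the uterine cavity and is the surface that meets the embryo, and the glandular epithelium is continuous with it and secretes into the cavity. Both are polarised sheets of cells joined by tight and adherens junctions, whereas the stroma below is a loose tissue of fibroblast-like cells, vessels and leukocytes in a collagen matrix. Transcripts that both epithelia share and the stroma lacks are therefore, as background, those that set epithelium apart from connective tissue. No gene is paired with any transcript in the deposited tables, so members are named by their Ensembl transcript identifiers and their functions are not given. For the same reason, the cell type labels could not be checked against known marker genes.

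The members' epithelial level, the mean of the LE and GE means in low P4 cows, ran from 21.2 to 36558 TPM with a median of 65.3 TPM. The level was 20 to 50 TPM for 59 members, 50 to 100 TPM for 46, 100 to 1000 TPM for 48 and above 1000 TPM for 7. The mean in ST of the same cows had a median of 1.72 TPM. The lower of the 2 epithelial means was 10.1 to 282 times the ST mean, with a median of 33.1 times. It was at least 50 times the ST mean for 37 members, at least 100 times for 4 and under 12 times for 10. These values chose the members and are given as a description. Closest to the threshold on the inner side were ENSBTAT00000001190.6 at 10.1 times and ENSBTAT00000069487.1 at 10.2 times the ST mean. Just outside were ENSBTAT00000071954.1 at 9.99 times and ENSBTAT00000007553.6 at 9.85 times. The members' annotated length, which the rule did not use, had a median of 1560.5 bases, against 1585.5 bases for the other 4790 transcripts at 20 TPM or more in both epithelia.

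The rule asked for similar means in both epithelia, and within that limit the members ran evenly to either side. The ratio of the LE mean to the GE mean had a median of 0.991 and ranged from 0.201 to 4.45. LE and GE were within 1.5-fold of each other for 80 members and within 2-fold for 114. The LE mean was at least 2-fold higher for 25 members, and the GE mean was at least 2-fold higher for 21.

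**Figure D1:**
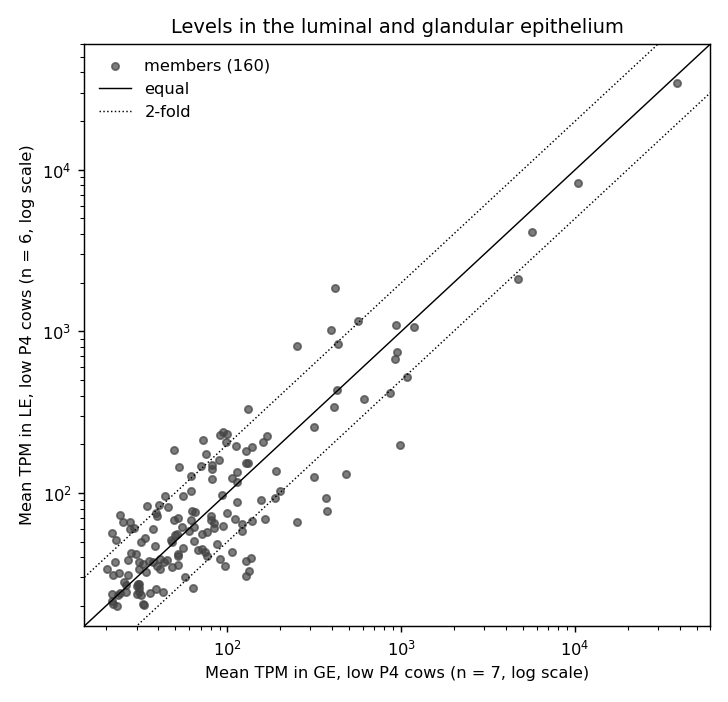
Mean TPM of each of the 160 members in GE (horizontal axis, n = 7) and in LE (vertical axis, n = 6) of low P4 cows, both on log scales; the solid line marks equal levels and the dotted lines a 2-fold difference. Points lie on both sides of the line of equal levels, 114 of them between the dotted lines, and 1 member stands alone near 36558 TPM.

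The most abundant member, ENSBTAT00000006297.5 (890 bases), stood above every other member. In low P4 cows it ran from 17031 to 65847 TPM in LE, with a median of 20691 TPM, and from 10592 to 91557 TPM in GE, with a median of 15211 TPM. In ST of those cows it ran from 4.36 TPM in cow 10 to 2208 TPM in cow 13, with a median of 264 TPM. Cow 10, which held the least of it in ST, held the most in both epithelia. In high P4 cows it was at 121652 TPM in the only LE sample, from cow 9, and at 17716, 16419 and 29726 TPM in GE of cows 2, 4 and 9. Its levels in ST of cows 4, 5 and 9 were 4265, 759 and 1019 TPM. No ST sample reached the lowest epithelial sample, and this single transcript took up 12.2% of all TPM in LE of cow 9.

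The next 2 members by level, ENSBTAT00000071929.1 and ENSBTAT00000074568.1, had the same annotated length of 569 bases and varied together. Over the 17 epithelial samples the Pearson correlation of their log2 TPM was 0.949, given as a description of samples that share cows and libraries. Whether reads were shared between them was not tested. ENSBTAT00000071929.1 ran from 632 TPM in cow 3 to 38161 TPM in cow 13 in LE of low P4 cows, with a median of 2721 TPM. In GE it ran from 87.7 TPM in cow 3 to 38944 TPM in cow 12, with a median of 3675 TPM. In ST it ran from 0.373 to 1032 TPM, with a median of 115 TPM. The ST samples therefore overlapped the epithelial samples of other cows for this transcript, although the means were 37.2-fold apart. The highest ST value was that of cow 13, and the lowest ST value was that of cow 3. No ST sample had a higher count of it than the epithelium of the same cow. ENSBTAT00000074568.1 ran from 194 to 19665 TPM in LE, from 19.5 to 27554 TPM in GE and from 1.30 to 505 TPM in ST of low P4 cows. Overlap was again between samples of different cows. In high P4 cows ENSBTAT00000071929.1 was at 2427 TPM in LE, at 2185, 2782 and 578 TPM in GE of cows 2, 4 and 9, and at 553, 13.0 and 49.6 TPM in ST of cows 4, 5 and 9. Those GE and ST samples did not overlap. The GE value of cow 9 and the ST value of cow 4 were close, but they are from different animals.

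ENSBTAT00000006450.6 and ENSBTAT00000008487.6 also shared an annotated length, of 1566 bases, and differed in pattern. ENSBTAT00000006450.6 leaned the furthest of all members towards LE, with 598 to 3634 TPM in LE and a median of 1596 TPM, against 259 to 650 TPM in GE and a median of 354 TPM in low P4 cows. In ST of those cows it ran from 2.53 to 160 TPM, and cow 6 held the highest value. The lean towards LE was also present in high P4 cow 9, which the rule did not use, at 513 TPM in LE and 181 TPM in GE. ENSBTAT00000008487.6 was even between the epithelia, with 546 to 1740 TPM in LE and 553 to 1756 TPM in GE, and ran from 0.261 to 65.6 TPM in ST of low P4 cows. In high P4 cows it was at 1581 TPM in LE, at 2136, 1874 and 1642 TPM in GE of cows 2, 4 and 9, and at 311, 41.0 and 23.9 TPM in ST of cows 4, 5 and 9. Every epithelial sample of ENSBTAT00000008487.6 was above every ST sample. The log2 TPM of these 2 members had a Pearson correlation of -0.30 over the epithelial samples, so a shared length did not go with a shared pattern here. For the other 3 pairs of members with equal length it was 0.404, 0.425 and -0.015.

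The remaining members among the 12 most abundant kept the same order of cell types. ENSBTAT00000022630.4 ran from 947 to 3820 TPM in LE, from 1099 to 9157 TPM in GE and from 0.816 to 164 TPM in ST of low P4 cows. ENSBTAT00000057281.3 and ENSBTAT00000070008.1 were both highest in cow 10 and lowest in cow 13 among the low P4 cows, in each epithelium. In LE they reached 2150 and 2213 TPM in cow 10 and were at 142 and 93.1 TPM in cow 13. ENSBTAT00000001108.6 leaned towards LE, with a median of 865 TPM there and 398 TPM in GE. ENSBTAT00000055568.3 leaned towards GE, with a median of 448 TPM in LE and 640 TPM in GE. ENSBTAT00000012238.3 and ENSBTAT00000028551.6 had the highest floors in ST, where no sample of low P4 cows was below 21.5 and 15.3 TPM, respectively.

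**Figure D2:**
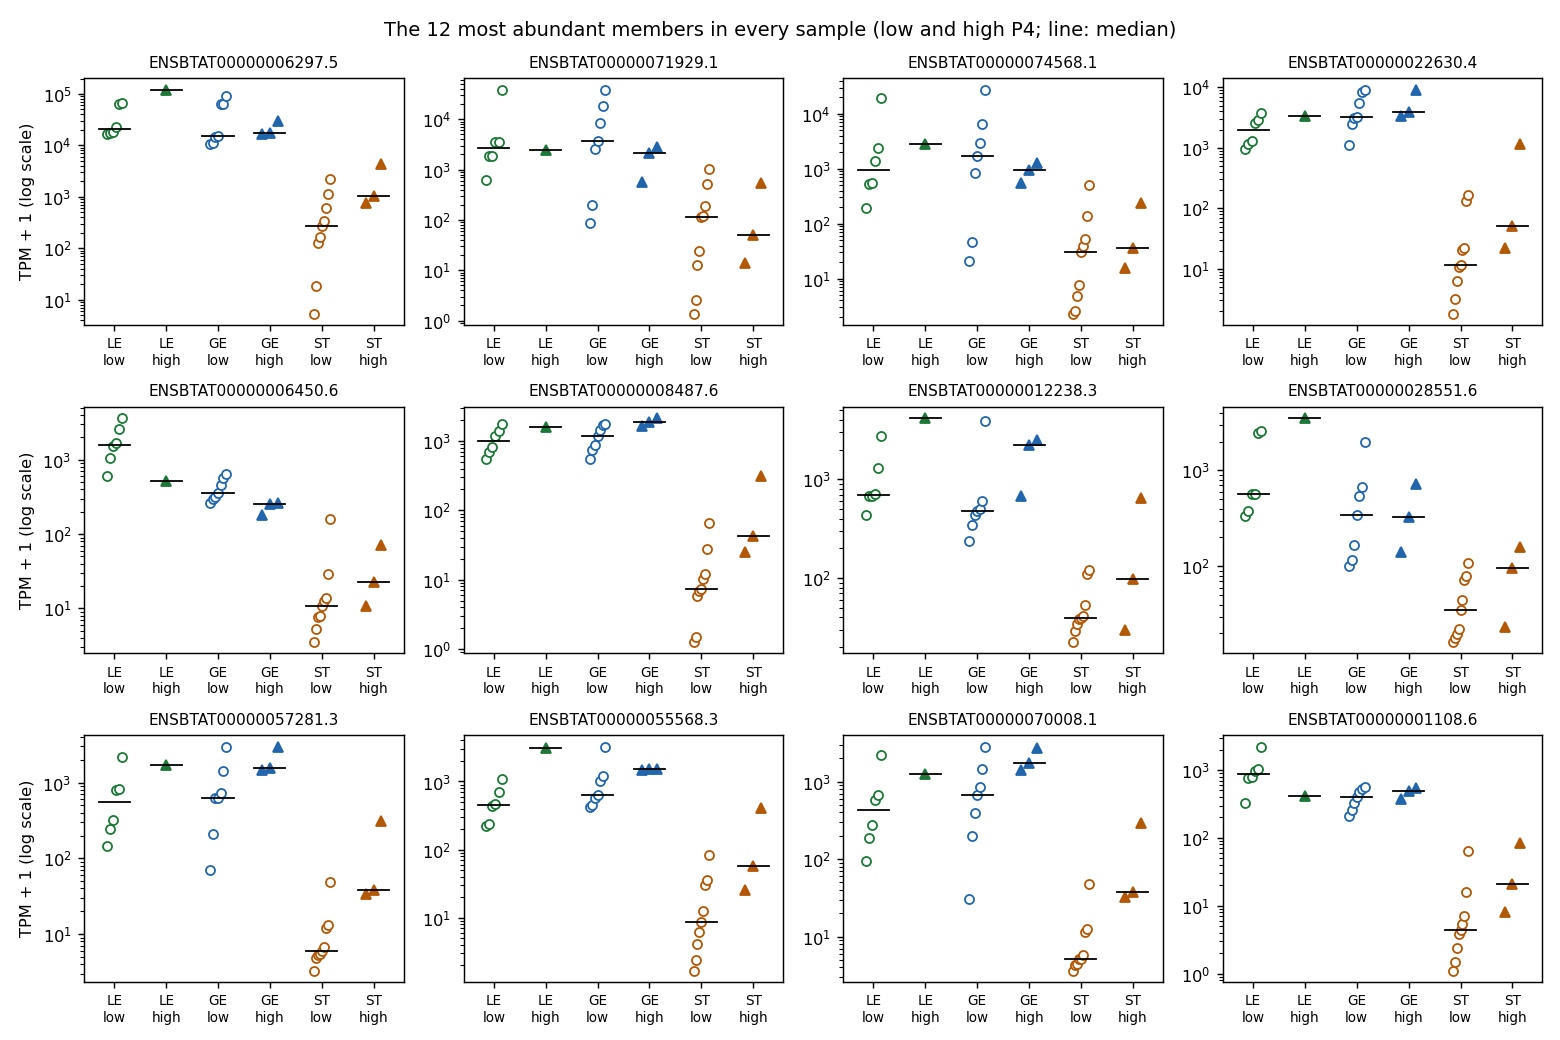
TPM + 1 of the 12 most abundant members (log scale, a panel for each) in LE, GE and ST samples of low P4 cows (open circles) and high P4 cows (filled triangles); black lines are group medians. In each panel the ST medians lie below the epithelial medians, and the highest ST triangle is cow 4 in all 12 panels.

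Most members were not uniformly high in every epithelial sample, and 52 of 160 reached 20 TPM in all 13 epithelial samples of low P4 cows. With the 4 epithelial samples of high P4 cows included, 49 did so. For 57 members, each of the 17 epithelial samples was above each of the 12 ST samples. Most of these samples are those of low P4 cows, which chose the members for a gap between epithelium and ST. The count is therefore a description, and its share over all transcripts is not given. For 24 members a single cow made up more than 50% of the summed TPM in LE of low P4 cows, and for 25 members a single cow did so in GE. The furthest case, chosen after its values were seen, was ENSBTAT00000016189.5, which was at 147 TPM in LE and 194 TPM in GE of cow 12, had a median of 0 TPM in GE of low P4 cows and had no count in any high P4 sample.

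The members varied more between cows than other transcripts of the same epithelia. The SD of log2(TPM + 1) between low P4 cows had a median of 1.02 in LE and 0.973 in GE for the members, against 0.447 and 0.484 for the other 4790 transcripts at 20 TPM or more in both epithelia. The rule used these samples, and means carried by 1 cow can enter it. In GE of high P4 cows, which the rule did not use, the medians were 0.467 for the members and 0.246 for the others over 3 cows. The least variable members, also chosen after their values were seen, were ENSBTAT00000024162.4 and ENSBTAT00000019323.6. ENSBTAT00000024162.4 ran from 90.4 to 279 TPM in LE and from 77.7 to 149 TPM in GE of low P4 cows. It was at 3.06 to 25.8 TPM in ST, so no samples of epithelium and ST overlapped in those cows.

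To compare samples over the whole set, each member's TPM was divided by its own epithelial level, and the median over the 160 members was taken. In LE of low P4 cows this median ran from 35.3% in cow 13 to 136% in cow 10, and in GE from 34.2% in cow 13 to 125% in cow 10. Cows 13 and 10 thus had the lowest and the highest median among low P4 cows in both epithelia. Cow 13 held the lowest value of 94 members in LE and of 97 members in GE, and cow 10 held the highest value of 66 members in LE. In GE cows 10 and 12 each held the highest value of 43 members. In cow 13 the other 4790 transcripts were lower as well, at 73.4% in LE and 78.7% in GE. Despite its low median, cow 13 had a summed share of 13.8% of all TPM for the members in LE, of which ENSBTAT00000006297.5 took up 6.50% and ENSBTAT00000071929.1, at 38161 TPM, was the next. The share over all epithelial samples ran from 3.08% in GE of cow 6 to 18.0% in GE of cow 10.

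In ST of low P4 cows the median level ran from 0.181% of the epithelial level in cow 3 to 8.38% in cow 6, with a mean of 1.84% ± 2.54 (SD, n = 9). The 8 ST samples other than cow 6 were all at or below 1.95%. Cow 6 held the highest ST value of 119 members among low P4 cows. In ST of high P4 cows, which the rule did not use, cow 4 had a median level of 21.2%, cow 5 one of 3.17% and cow 9 one of 2.54%, with a mean of 8.98% ± 10.6 (SD, n = 3). Cow 4 held the highest ST value of all 12 ST samples for 123 members. The other 4790 transcripts were at 99.6% in ST of cow 4 and 93.2% in ST of cow 6, within the range of 74.7% to 105% over all ST samples. Their levels in ST were near those in epithelium, so this comparison says little on the members' levels in these 2 samples. Members at 20 TPM or more numbered 61 in ST of cow 4 and 24 in ST of cow 6, against 1 to 13 in the other ST samples.

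**Figure D3:**
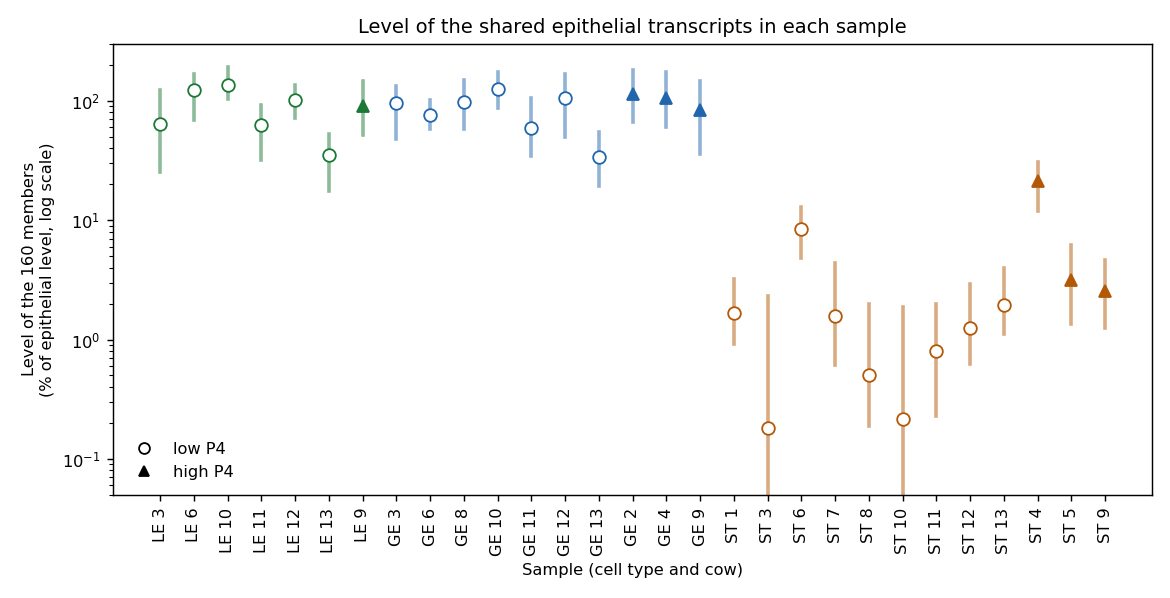
Median level of the 160 members in each of the 29 samples as a percentage of their epithelial level (log scale), with bars from the lower to the upper quartile over members, cut at the lower end of the axis; open circles are low P4 and filled triangles high P4 cows. Epithelial samples lie between 34.2% and 136%, and ST samples below 10% except cow 4 at 21.2%.

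The ST samples of cows 4 and 6 held most members at a similar fraction of the level in the same cow's epithelium. In cow 4 the ST level was 18.7% of the GE level in the median over 159 members with at least 1 TPM in GE, with quartiles of 15.3% and 24.3%, and 139 of the 159 members lay within 2-fold of that median. In cow 6 it was 10.96% of the GE level, with quartiles of 7.33% and 17.0%, and 111 of 159 members lay within 2-fold. Measured against LE of cow 6 it was 7.03%, and 134 of 159 members lay within 2-fold. In cow 13 the ST level was 6.22% of the GE level, with 86 of 150 members within 2-fold, and in cow 9 it was 2.93%, with 84 of 157. In the other 5 cows with both cell types it was 0.145% to 1.42%, and 17 to 60 members lay within 2-fold of the median. In the ST samples of those cows 14 to 47 members had no count, and the part of low counts in their spread was not tested. By the study's methods each capture cap was examined and unwanted cells could be removed by laser. Epithelial cells captured with the stroma and expression by stromal cells are not separated by these values, and their part in them was not tested. In bulk samples of this kind, fewer cells of a type and less RNA per cell cannot be told apart.

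The high P4 cows allowed the difference between epithelium and stroma to be compared on levels that the rule did not use. The spread behind the p-values was estimated over all 29 samples, so it included the low P4 samples that chose the members. GE was compared with ST in high P4 cows, 3 samples each, with edgeR's quasi-likelihood test on estimated counts over 27480 transcripts and Benjamini-Hochberg adjustment, at an adjusted p of at most 0.05. All 160 members passed the count filter. Of these, 48 (30.0%) were called higher in GE and 0 lower, against 3.2% of all transcripts tested that were called higher. An unadjusted p under 0.05 with a higher level in GE was reached by 126 members (78.8%), against 12.4% of all transcripts. The log2 fold change was above 0 for 159 members and at 0 for ENSBTAT00000016189.5, which had no count in these samples, and its median was 3.49 with quartiles of 2.99 and 3.93, against 0.03 over all transcripts. In TPM, all 3 GE samples were above all 3 ST samples for 140 members (87.5%), against 20.4% of all transcripts tested.

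The ratio of the GE mean to the ST mean in high P4 cows had a median of 11.4, with quartiles of 8.12 and 15.2. In the low P4 cows it had a median of 40.0, but those cows chose the members by a ratio of at least 10, so the values do not compare the P4 groups. The ratio was at least 10 for 99 members and at least 2 for 156. With the ST sample of cow 4 left out, a choice made after seeing the data, edgeR called 83 members (51.9%), against 3.6% of all transcripts, and the median log2 fold change was 5.12. With the ST samples of cows 4 and 6 both left out it called 102 (63.8%), against 3.77% of all transcripts. The count rested on the small number of cows, with 1 member called without cow 9, 4 without cow 5 and 21 without cow 2. The shares of all transcripts called higher in those fits were 0.0946%, 0.295% and 0.997%. With the cow as a block, which uses that samples came from the same animals, 5 members (3.12%) were called. This was against 0.499% of all transcripts, at a median log2 fold change of 3.66. Cow 2 gave no ST sample and cow 5 no GE sample, so the block's estimate in high P4 cows rests on cows 4 and 9. DESeq2 called 111 members (69.4%), against 7.54% of all transcripts. With the GE and ST samples of high P4 cows fitted alone, edgeR called 70 (43.75%), against 5.32% of all transcripts. That fit took its spread from high P4 samples only. No fit called a member lower in GE.

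**Figure D4:**
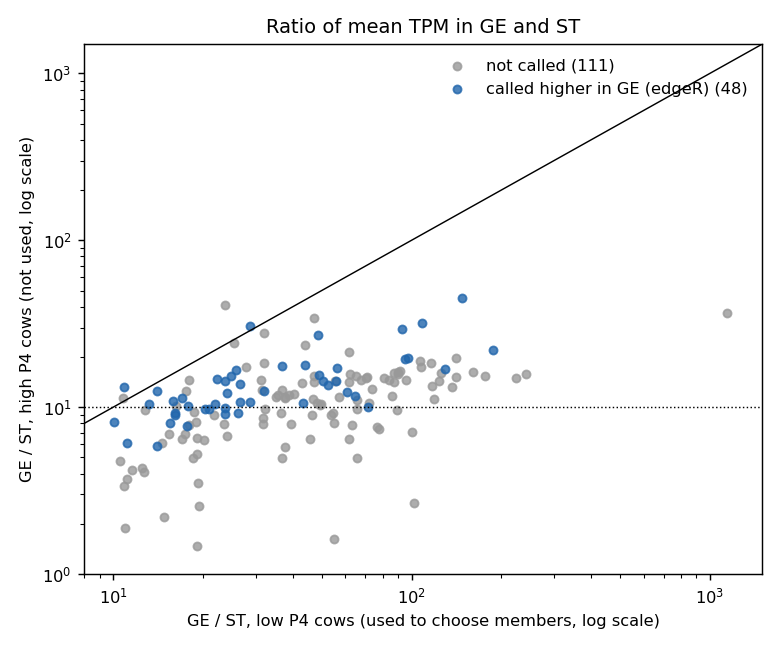
Ratio of mean TPM in GE to mean TPM in ST for 159 members with a level in ST of high P4 cows, in the low P4 cows that chose them (horizontal axis) and in high P4 cows (vertical axis), both on log scales; blue points were called higher in GE by edgeR, the solid line marks equal ratios and the dotted line a ratio of 10. All but a few points lie below the line of equal ratios, and 99 lie at or above the dotted line.

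The largest difference in high P4 cows was that of ENSBTAT00000038369.3, a member that leaned towards GE. It was at 138, 53.9 and 136 TPM in GE of cows 2, 4 and 9, and at 6.69, 0 and 0.560 TPM in ST of cows 4, 5 and 9. The groups did not overlap, and the log2 fold change was 5.48 (SE 1.55), with an adjusted p of 0.0392 by edgeR. The call was lost in 6 of 20 alternatives, among them the cow block, at an adjusted p of 0.153, and leaving out cows 2, 5, 9 or 11, at 0.0516 to 0.22. In LE it was at 7.54 TPM in cow 9 and at 4.49 to 75.1 TPM in low P4 cows, a range that overlaps the GE values. ENSBTAT00000031567.5 was at 48.2, 34.6 and 56.8 TPM in GE and at 2.98, 0.425 and 0 TPM in ST of those cows. Its samples did not overlap either, and it had a log2 fold change of 5.21 (SE 1.83), with an edgeR adjusted p of 0.0857. ENSBTAT00000071295.1 was at 319 and 332 TPM in GE of cows 2 and 4 but at 1.62 TPM in cow 9, and at 17.9, 0 and 0 TPM in ST. With this overlap its log2 fold change of 5.20 had an SE of 2.87 and an edgeR adjusted p of 0.284.

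At the other end, 3 members had the smallest ratios of GE to ST in high P4 cows. ENSBTAT00000015760.4, at 300 bases the shortest member, was at 105 to 880 TPM in GE of low P4 cows, with a median of 444 TPM. In high P4 cows it was at 0.800, 29.8 and 14.9 TPM in GE of cows 2, 4 and 9, and at 13.2, 6.53 and 11.03 TPM in ST of cows 4, 5 and 9. The high P4 GE samples were all below the low P4 GE samples, and they overlapped with ST. ENSBTAT00000024328.6 was at 16.6, 17.5 and 4.88 TPM in GE and at 5.44, 18.7 and 0.0154 TPM in ST, where cow 5 exceeded every GE sample. ENSBTAT00000026353.6 was at 2.04, 1.14 and 0.873 TPM in GE and at 1.21, 0.196 and 0.744 TPM in ST of high P4 cows. In low P4 cows it was at 4.24 to 109 TPM in LE, with a median of 42.6 TPM, and at 0.470 to 75.8 TPM in GE, with a median of 12.6 TPM. For ENSBTAT00000015760.4 and ENSBTAT00000026353.6 the small ratio thus went with low values in high P4 GE. The log2 fold changes of high over low P4 in GE were -4.90 (SE 0.98) and -4.15 (SE 1.44), with edgeR adjusted p of 0.112 and 0.369, and neither passed the threshold. The log2 fold changes of GE over ST of the 3 members, in the order given, were 0.47 (SE 0.92), 0.71 (SE 1.37) and 0.85 (SE 1.40), with edgeR adjusted p of 0.836, 0.831 and 0.794.

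Among the 12 most abundant members, the log2 fold change of GE over ST in high P4 cows ran from 2.09 for ENSBTAT00000028551.6 to 4.01 for ENSBTAT00000070008.1. None of the 12 passed the threshold. ENSBTAT00000057281.3 came closest, at 2992, 1559 and 1458 TPM in GE of cows 2, 4 and 9 and at 306, 37.6 and 33.1 TPM in ST of cows 4, 5 and 9. Its samples did not overlap, and its log2 fold change was 3.99 (SE 1.25), with an edgeR adjusted p of 0.0584.

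Cow 9 was the only high P4 cow with all 3 cell types, so the rule could be applied within it to samples that had not chosen the members. In that cow 123 transcripts met the rule, 0.324% of all transcripts, and 87 of them were members. These were 54.4% of the members and 70.7% of the transcripts that met the rule in cow 9. Of the members, 106 were at 20 TPM or more in both epithelia, and 126 were within 5-fold between LE and GE. Among members with any TPM in both epithelia, 117 were at least 10 times the ST level in both. In the low P4 cows with all 3 cell types, which the rule used, 47 members in cow 13 to 137 in cow 10 met it within the cow. The lean of members in low P4 cows was set beside their levels in cow 9. Of the 25 members at least 2-fold higher in LE in low P4 cows, 15 were higher in LE in cow 9. Of the 21 members at least 2-fold higher in GE, 15 were higher in GE in cow 9. The other 114 members were split in cow 9, with 60 higher in LE and 53 higher in GE. The count of LE-leaning members higher in LE was thus not far above that split. The median ratio of LE to GE in cow 9 was 1.56 for the LE-leaning, 0.537 for the GE-leaning and 1.08 for the other members. These are values of 1 cow, with no test.

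The study compared high with low P4 cows within GE and within ST, and with 1 high P4 sample LE was not compared here. Low P4 samples chose the members for high levels in epithelium and low levels in ST, which favours a fall in GE and a rise in ST on moving to other cows. In GE, edgeR called 0 members higher and 0 lower, against 0.0% of all transcripts tested in each direction. At an unadjusted p under 0.05, 2 members (1.25%) were higher and 5 (3.12%) lower, against 3.28% and 6.04% of all transcripts. DESeq2 called 3 members (1.88%), all lower in high P4 cows, against 1.72% of all transcripts called lower. The median log2 fold change was -0.02 over the members and -0.09 over all transcripts, with 76 members above 0 and 84 below.

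In ST, 4 members (2.5%) were called higher in high P4 cows and 0 lower, against 0.171% of all transcripts tested called higher and 0.00728% called lower. The log2 fold change was above 0 for 143 members and its median was 1.49, against -0.04 over all transcripts. At an unadjusted p under 0.05, 75 members (46.9%) were higher and 0 lower, against 4.91% and 5.92% of all transcripts. In TPM, all 3 high P4 samples were above all 9 low P4 samples for 8 members (5.0%), against 3.45% of all transcripts tested. Without cow 4 no member was called, against 0.0218% of all transcripts called higher. The median over the members fell to -0.02, and 79 members were above 0 and 81 below. With the ST sample of cow 4 alone left out the median was likewise -0.02; this is the sample at 21.2% of the epithelial level. Without cow 6, the low P4 cow with the highest level in ST, 22 members (13.8%) were called, against 0.342% of all transcripts. Without cow 9, 7 were called, without cow 11, 1, and without cow 12, 2, against 0.255%, 0.0582% and 0.0728% of all transcripts. With the cow as a block no member was called, although 0.295% of all transcripts were called higher and 0.0291% lower. With the ST samples fitted alone no member was called, against 0.0109% of all transcripts called higher. DESeq2 called 18 members (11.25%) higher and 1 (0.625%) lower, against 0.593% and 0.95% of all transcripts.

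**Figure D5:**
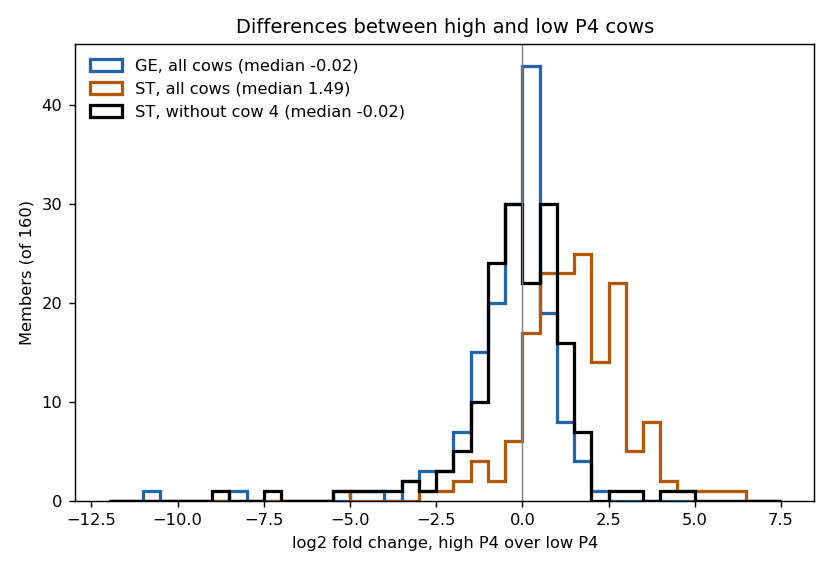
Number of members by log2 fold change of high over low P4 cows (bins of 0.5), in GE (blue), in ST (orange) and in ST without cow 4 (black). The GE and the black ST distributions centre near 0 with medians of -0.02, and the orange one lies to the right with a median of 1.49.

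ENSBTAT00000020594.6 had the largest change called in ST. It was at 91.7, 23.7 and 3.33 TPM in ST of high P4 cows 4, 5 and 9, and at 0 to 1.53 TPM in ST of low P4 cows, with a median of 0.260 TPM. All 3 high P4 samples were above all 9 low P4 samples, and the log2 fold change was 6.20 (SE 1.06), with an edgeR adjusted p of 0.0101. Its epithelial levels were also high in those cows, at 253, 221 and 114 TPM in GE of cows 2, 4 and 9 against 2.36 to 122 TPM in low P4 cows, where only cow 10 exceeded cow 9. In LE it was at 1102 TPM in cow 9, against 5.28 to 273 TPM in low P4 cows. The log2 fold change in GE was 2.46 (SE 1.01), with an edgeR adjusted p of 0.469, and did not pass the threshold.

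ENSBTAT00000021694.5 had the same pattern at lower levels. It was at 32.4, 4.32 and 3.45 TPM in ST of cows 4, 5 and 9, and at 0 to 0.906 TPM in ST of low P4 cows, with a median of 0.0756 TPM. The samples did not overlap, and the log2 fold change was 5.09 (SE 0.98), with an edgeR adjusted p of 0.0242. In GE it was at 223, 144 and 164 TPM in high P4 cows and at 9.52 to 107 TPM in low P4 cows, again without overlap. There the log2 fold change was 1.87 (SE 1.02), with an edgeR adjusted p of 0.581. The other two members called in ST had log2 fold changes of 4.89 and 1.77 and were also highest in cow 4.

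Whether the P4 difference was unlike in GE and ST was tested as the interaction of cell type and P4. It was called for 0 members, against 0.0% of all transcripts tested in each direction, and DESeq2 also called 0 members. At an unadjusted p under 0.05, 19 members (11.9%) had a lower P4 effect in GE than in ST and 0 a higher one. The shares of all transcripts were 2.54% and 1.48%. Choosing members that were high in GE and low in ST of low P4 cows favours this direction. The median of the interaction over the members was -1.74 on the log2 scale, against -0.03 over all transcripts, and without cow 4 it was -0.32.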

How the data were processed

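RNA of LE, GE and ST cells of 13 cows was sequenced as 29 samples, and replicates are separate cows. The authors quantified the reads with Salmon 1.1.0 against bovine Ensembl cDNA (build ARS-UCD1.2 in the submitters' processing notes) and deposited estimated counts for 37925 transcripts per sample, not normalized. The deposited TPM values were computed by Salmon from those counts and the effective transcript lengths. Neither the tables nor the reference at hand pairs transcripts with genes, so transcripts were not summed to genes, the gene lists and markers planned for this work were not used, and no sequence is given. The members, lists and tests were chosen with earlier results of these data known.

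Levels are TPM. For tests, counts were rounded, a transcript had to reach 10 counts in 3 or more samples (27480 did), and the 6 groups of cell type and P4 were fitted over all 29 samples with TMM and the quasi-likelihood test of edgeR 4.0.16 in R 4.3.3, as if samples were independent. They were not, since samples of the same cow come from 1 animal. Deviations from group means correlated within cows at a median of 0.338 over 21 pairs of samples, against -0.0353 between cows. P-values were adjusted over all transcripts by Benjamini-Hochberg, with a threshold of 0.05. Alternatives were DESeq2 1.42.0, RLE factors, no count filter, the groups alone, a block for the cow, and leaving out each cow. For GE against ST and for the interaction, the block was a term for each cow in edgeR. For P4 within GE and within ST, it was a correlation within cows in voom of limma 3.58.1. Leaving out the ST samples of cows 4 and 6 was added after seeing the data. Named members are the 12 most abundant, 2 on each side of the ratio threshold, 3 with the largest and 3 with the smallest GE to ST ratio in high P4 cows, and 2 called for P4. Scripts were tested on simulated data. Tables used pandas 2.3.3 and numpy 2.4.6 in Python 3.11.15, and figures matplotlib 3.10.9. Depth was similar across samples, and counts near 0 in ST limit the precision of ratios there.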

Additional observations from a re-analysis of the deposited data

Results flagged for a closer look

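In 27 of 63 groups of low P4 samples examined, the highest sample stood further from the rest than Dixon's 95% critical value. Chance does so in about 5% of groups only where values are normally distributed. TPM values here are skewed and the same samples chose the members, so the 27 groups are not read against that rate. The groups are not independent, since they share cows.

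Cow 10 was the sample that stood apart in 12 of them. In LE these were ENSBTAT00000057281.3 at 2150 TPM, ENSBTAT00000070008.1 at 2213 TPM, ENSBTAT00000071295.1 at 136 TPM, ENSBTAT00000020594.6 at 273 TPM and ENSBTAT00000021694.5 at 106 TPM. The next highest LE samples of these members were at 816, 679, 39.5, 44.6 and 30.0 TPM. In GE they were ENSBTAT00000074568.1 at 27554 TPM, ENSBTAT00000012238.3 at 3899 TPM, ENSBTAT00000028551.6 at 1999 TPM, ENSBTAT00000055568.3 at 3254 TPM, ENSBTAT00000031567.5 at 258 TPM, ENSBTAT00000071295.1 at 609 TPM and ENSBTAT00000020594.6 at 122 TPM.

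Cow 13 stood apart in LE for the pair of members of equal length, ENSBTAT00000071929.1 at 38161 TPM and ENSBTAT00000074568.1 at 19665 TPM, against next values of 3586 and 2344 TPM. The same cow stood apart in ST for both, at 1032 and 505 TPM, and for ENSBTAT00000006297.5 at 2208 TPM and ENSBTAT00000055568.3 at 83.2 TPM.

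Cow 6 stood apart in ST for the median level over all members, at 8.38% of the epithelial level against 1.95% in the next sample. It did so for ENSBTAT00000006450.6 at 160 TPM, ENSBTAT00000008487.6 at 65.6 TPM, ENSBTAT00000057281.3 at 47.8 TPM, ENSBTAT00000070008.1 at 46.9 TPM, ENSBTAT00000001108.6 at 62.4 TPM, ENSBTAT00000031567.5 at 30.2 TPM and ENSBTAT00000015760.4 at 82.1 TPM. Cow 3 was the only ST sample of low P4 cows with any ENSBTAT00000071295.1, at 1.05 TPM.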

How the results depend on the processing

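The rule gave 160 members, and 256 with a minimum of 10 TPM in the epithelia. The other settings, which included medians in place of means, ratios of 5 and 20, all samples in place of low P4 samples and each cow left out, gave 114 to 225. The number of members called higher in GE than in ST of high P4 cows was 48, against 3.2% of all transcripts. It was 111 with DESeq2, 70 with the groups alone, 42 with no count filter and 5 with the cow as a replicate block. The shares of all transcripts in those fits were 7.54%, 5.32%, 1.96% and 0.499%. The number was 83 without the ST sample of cow 4 and 102 without those of cows 4 and 6, against 3.6% and 3.77%. With each cow left out it was 1 (without cow 9) to 65 (without cow 6), against 0.0946% and 3.17% of all transcripts. The number called for P4 in ST was 4, all higher, against 0.171% of all transcripts called higher. It was 19 with DESeq2, 0 with the block, 0 with the groups alone, 0 without the ST sample of cow 4 and 0 without those of cows 4 and 6. With each cow left out it was 0 (without cow 4) to 22 (without cow 6), against 0.0218% and 0.342% of all transcripts called higher. The number called for P4 in GE was 0, and it was 3 with DESeq2, all lower, and 1 with the block, which was higher. With DESeq2, 1.88% of members and 1.72% of all transcripts were called lower. With the block, 0.625% of members and 0.255% of all transcripts were called higher. The block changed no count of the interaction, which was 0 in every fit run. Of 400 values of named members under alternatives, 345 kept direction and side of the threshold, 36 passed it where they had not, 18 no longer passed it, and 1 changed sign, ENSBTAT00000015760.4 in GE against ST, at -0.37 without cow 4 on the log2 scale, the lowest with a cow left out, the highest being 1.04 without cow 2. Where a count moved with a tool, the cause was not tested; leaving out cows leaves fewer samples. With 3 high P4 samples in each cell type, and many members near 0 counts in ST, single members are resolved poorly.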
